A study of Mus musculus with 9 samples.

Results

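The 10 genes described here are mouse genes of the interleukin-1 (IL-1) family and its receptors, chosen by symbol: *Il1a*, *Il1b*, *Il1rn*, *Il1r1*, *Il1r2*, *Il1rap*, *Il18*, *Il18r1*, *Il33* and *Il1rl1*. All 10 were among the 18349 genes listed in each of 9 iris RNA-Seq libraries, and all 10 were among the 15010 genes with enough counts to be tested. The rule used the symbols and no measured value, but the members were chosen with earlier results of these data known. IL-1α, IL-1β, IL-18 and IL-33 are cytokines that bind a specific receptor chain, which then recruits an accessory chain and signals through the adaptor MyD88 to NF-κB. Inhibitors act at several steps of the family: a soluble antagonist occupies the IL-1 receptor, a decoy receptor binds IL-1 without signalling, and a binding protein captures IL-18. In the eye, IL-1α and IL-1β are known for driving leukocyte entry and inflammatory angiogenesis after damage to the cornea. IL-33 and IL-1α are also stored in barrier and stromal cells and released when those cells are injured.

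The study compared irises after corneal alkali injury (CAI), a chemical burn of the cornea, with and without deletion of *VEGFR3* in cells that express *Prox1*, a transcription factor of lymphatic endothelium. The Sham *VEGFR3* fl/fl group was treated at 6 weeks of age with PBS, applied to the cornea in a volume of 0.5 µL for 60 seconds. The *VEGFR3*iLECko and *VEGFR3* fl/fl mice of the injured groups received 1 M sodium hydroxide in the same way. The mice, of C57BL/6J background, all carried floxed *VEGFR3* and received, by the labels, tamoxifen at 80 mg/kg from day 13 to day 17, and the iLECko mice also carried a tamoxifen-inducible Cre driven by *Prox1*. Irises were collected at 10 weeks, 28 days after treatment, and each group had 3 libraries of 3 pooled irises. The labels tag the fl/fl groups as wild type. A Sham group with Cre and an injured group with Cre but without floxed alleles were not analysed here.

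Total counts were 16617187 to 16838904 in the Sham libraries, 17538981 to 18306359 in the *VEGFR3* fl/fl libraries after injury and 17561521 to 17591702 in the injured *VEGFR3*iLECko libraries. *Flt4* encodes VEGFR3 and checks the genotype labels. The libraries labelled *VEGFR3*iLECko held 478, 370 and 476 *Flt4* counts, compared with 277, 353 and 400 for injured *VEGFR3* fl/fl, so its mRNA was not lower with the deletion allele (log2 fold change 0.33 ± 0.15 SE, adjusted p = 0.200 by edgeR). Cre acts only in *Prox1*-expressing cells, whereas the count covers the whole iris, and which part of the transcript the counts cover cannot be seen. The genotype tags of 2 of these libraries name another VEGFR number, and their titles were followed. Iris pigment and muscle markers were present in every library, with a summed level of 34320 to 38046 CPM (counts relative to the library's total as scaled by edgeR's TMM method) in Sham and 4630 to 9313 CPM in the injured groups. Replicate 1 of the injured *VEGFR3* fl/fl group stood apart from the other replicates, with a chi-square per degree of freedom of 76.2 and 67.4 against them, compared with 26.7 between the other pair. Y-linked genes also differed between pools, and summed to 51.1 to 167 CPM in Sham, to 151, 136 and 0.804 CPM in injured *VEGFR3* fl/fl replicates 1 to 3, and to 0.736 to 1.11 CPM in *VEGFR3*iLECko. The sex of the pooled mice and their genotype can therefore be told apart only in part between the injured groups. Every Sham library lay above every *VEGFR3*iLECko library in this sum, so sex, genotype and injury cannot be told apart in that comparison. Results that changed with a Y-linked covariate are given below.

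The genes of 4 receptor chains lie near each other on chromosome 1, where *Il1r2* spans 40084692 to 40125230, *Il1r1* 40222480 to 40316201, *Il1rl1* 40404864 to 40465418 and *Il18r1* 40465552 to 40500854 (mm10, RefSeq annotation of GRCm38.p6). On chromosome 2, *Il1a* spans 129299609 to 129310186 and *Il1b* 129364569 to 129371164, and *Il1rn* spans 24336860 to 24351491 on the same chromosome. *Il18* lies on chromosome 9 at 50554700 to 50581841, *Il33* on chromosome 19 at 29925113 to 29960718 and *Il1rap* on chromosome 16 at 26581509 to 26730128. The 250 bases before the RefSeq start sites were searched on both strands for 5 motifs, because members of this family are known targets of NF-κB, AP-1, C/EBP and PU.1. The windows below belong to the cytokine, antagonist and decoy genes whose levels changed most, and to *Il33* and *Il18*, which fell in an injured group. They are written 5′ to 3′ along the gene's strand, credited to RefSeq (GRCm38.p6), with motif matches in capitals.
Il1a (chr2:129309973-129310222, minus strand): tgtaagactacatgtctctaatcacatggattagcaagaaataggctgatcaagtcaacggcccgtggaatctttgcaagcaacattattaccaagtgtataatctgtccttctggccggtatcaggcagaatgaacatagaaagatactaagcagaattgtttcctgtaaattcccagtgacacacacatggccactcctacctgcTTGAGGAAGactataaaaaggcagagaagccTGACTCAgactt
Il1b (chr2:129371140-129371389, minus strand): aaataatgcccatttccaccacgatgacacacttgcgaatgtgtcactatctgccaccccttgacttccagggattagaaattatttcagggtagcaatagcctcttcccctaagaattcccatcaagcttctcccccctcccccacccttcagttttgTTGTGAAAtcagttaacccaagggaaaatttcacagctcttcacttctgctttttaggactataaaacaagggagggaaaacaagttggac
Il1rn, most upstream start (chr2:24336610-24336859, plus strand): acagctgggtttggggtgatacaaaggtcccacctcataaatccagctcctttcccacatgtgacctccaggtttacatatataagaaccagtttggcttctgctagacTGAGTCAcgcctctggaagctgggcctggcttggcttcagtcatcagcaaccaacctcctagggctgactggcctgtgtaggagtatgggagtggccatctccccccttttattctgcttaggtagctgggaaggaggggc
Il1rn, most downstream start (chr2:24345121-24345370, plus strand): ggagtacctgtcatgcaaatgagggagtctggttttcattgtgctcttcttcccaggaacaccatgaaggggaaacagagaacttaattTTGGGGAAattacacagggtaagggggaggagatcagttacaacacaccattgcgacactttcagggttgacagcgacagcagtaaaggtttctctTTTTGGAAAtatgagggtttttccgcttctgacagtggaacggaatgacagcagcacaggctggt
Il1r2 (chr1:40085843-40086092, plus strand): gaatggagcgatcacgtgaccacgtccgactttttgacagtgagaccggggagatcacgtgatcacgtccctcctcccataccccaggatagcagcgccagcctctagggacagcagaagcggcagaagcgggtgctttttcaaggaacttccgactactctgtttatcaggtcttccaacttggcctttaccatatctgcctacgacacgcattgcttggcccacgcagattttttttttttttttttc
Il33, upstream start (chr19:29924863-29925112, plus strand): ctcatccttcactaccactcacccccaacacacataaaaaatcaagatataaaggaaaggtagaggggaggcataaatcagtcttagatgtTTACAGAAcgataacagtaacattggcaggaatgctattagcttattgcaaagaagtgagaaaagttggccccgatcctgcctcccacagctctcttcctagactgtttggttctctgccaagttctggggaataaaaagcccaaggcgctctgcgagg
Il33, downstream start (chr19:29945540-29945789, plus strand): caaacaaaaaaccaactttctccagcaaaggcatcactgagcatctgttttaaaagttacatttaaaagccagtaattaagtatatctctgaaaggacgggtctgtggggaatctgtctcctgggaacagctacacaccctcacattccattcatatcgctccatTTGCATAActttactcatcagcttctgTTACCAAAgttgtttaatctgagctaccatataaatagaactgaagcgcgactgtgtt
Il18 (chr9:50554450-50554699, plus strand): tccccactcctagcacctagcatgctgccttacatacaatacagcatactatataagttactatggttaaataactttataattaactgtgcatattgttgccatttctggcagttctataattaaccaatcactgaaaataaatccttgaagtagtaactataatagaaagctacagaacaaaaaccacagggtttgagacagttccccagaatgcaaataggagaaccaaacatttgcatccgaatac
The *Il1a* window held an AP-1 match (TGANTCA) 12 bases before the start, and a C/EBP match (TTNNGNAA) at 43 bases that overlaps a PU.1 match (GAGGAAG) at 41 bases. The *Il1b* window held a C/EBP match at 91 bases. The upstream *Il1rn* window held an AP-1 match at 141 bases, and the downstream window held a C/EBP match at 161 bases and 2 that overlap each other at 65 and 64 bases. The *Il33* windows held C/EBP matches at 159 bases from the upstream start and at 85 and 58 bases from the downstream start. The *Il1r2* and *Il18* windows held no match. Over all 17 windows of the 10 genes, C/EBP matched 10, AP-1 2, PU.1 2, the NF-κB motif 1 (in *Il1r1*, overlapping a C/EBP match) and the interferon-stimulated response element (ISRE) 0. Among all 32851 RefSeq windows of that length the shares were 36.8% for C/EBP, 6.75% for AP-1, 10.6% for PU.1, 3.9% for NF-κB and 2.98% for ISRE. These are letter matches only, and several windows of a gene share bases.

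CAI changed most of the family. At 28 days, 7 of the 10 genes were higher in injured *VEGFR3* fl/fl than in Sham irises (*Il1a*, *Il1b*, *Il1rn*, *Il1r1*, *Il1r2*, *Il18r1* and *Il1rl1*), where 22.1% of all tested genes were called higher. *Il33* alone among the 10 was called lower, against 17.5% of all tested genes. *Il18* and *Il1rap* did not pass both thresholds, an adjusted p under 0.05 in edgeR's quasi-likelihood F-test after Benjamini-Hochberg adjustment and a change of more than 1.5-fold. The largest change was that of *Il1rn*, the antagonist, followed by the decoy receptor *Il1r2* and by *Il1b*. The median over the 10 genes was a log2 fold change of 3.76, or 3.41 with *Il18r1* placed at its bound, beside 0.010 over all tested genes. In 7 genes every injured library lay above every Sham library (33.9% of all tested genes), in 2 every injured library lay below (32.4%), and in 1, *Il1rap*, the groups overlapped. These are bulk samples, in which more cells of a type and more RNA per cell cannot be told apart.

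**Figure D1:**
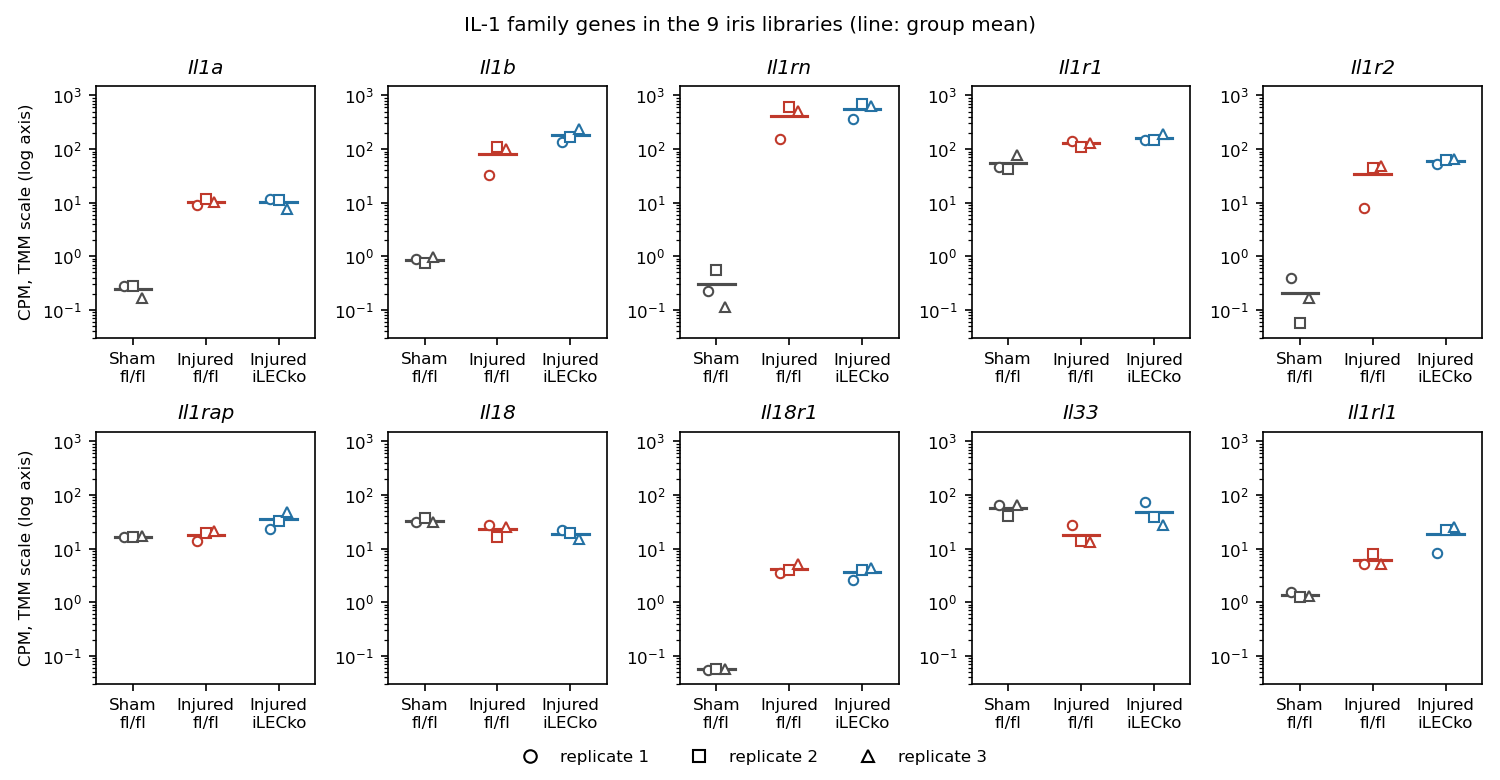
Levels of the 10 IL-1 family genes in each of the 9 iris libraries, in CPM on the TMM scale (log axis), by group; each symbol is a library of 3 pooled irises and each line a group mean. *Il1a*, *Il1b*, *Il1rn*, *Il1r2* and *Il18r1* lie below 1 CPM in every Sham library and above 2 CPM in every injured library, and replicate 1 of the injured *VEGFR3* fl/fl group is the lowest injured library for *Il1b*, *Il1rn* and *Il1r2*.

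Among the ligands, *Il1a* encodes IL-1α, which is active without cleavage. It measured 0.277, 0.282 and 0.169 CPM in the Sham libraries, from 5, 5 and 3 counts. It measured 8.98, 11.5 and 10.3 CPM in the *VEGFR3* fl/fl libraries after injury and 11.6, 11.2 and 7.77 CPM in the *VEGFR3*iLECko libraries. Every injured library was thus far above Sham, and the injured groups overlapped. The mean went from 0.243 ± 0.064 CPM (SD, n = 3) in Sham to 10.3 ± 1.25 CPM (SD, n = 3) after injury, a log2 fold change of 5.36 ± 0.27 SE (adjusted p = 5.72e-07). Against injured *VEGFR3* fl/fl, the *VEGFR3*iLECko libraries differed by -0.014 ± 0.19 SE on the log2 scale (adjusted p = 0.974), a sign that turned with library size scaling and without some libraries.

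*Il1b* encodes IL-1β, whose precursor is cut by caspase-1 before release. The Sham libraries held 0.886, 0.734 and 0.957 CPM. The injured *VEGFR3* fl/fl libraries held 32.6, 108 and 100.5 CPM and the *VEGFR3*iLECko libraries 135, 166 and 239 CPM. The 3 groups did not overlap, and the lowest injured value was that of injured *VEGFR3* fl/fl replicate 1. *Il1b* rose after injury with a log2 fold change of 6.54 ± 0.57 SE (adjusted p = 1.32e-05). The *VEGFR3*iLECko mean was 179.6 ± 53.4 CPM (SD, n = 3), beside 80.5 ± 41.6 CPM for the other injured group (SD, n = 3). This log2 difference of 1.16 ± 0.38 SE did not pass the threshold (adjusted p = 0.122 by edgeR). The log2 difference was 0.79 without injured *VEGFR3* fl/fl replicate 1, and over 19 settings the adjusted p lay between 0.0859 and 0.719.

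*Il1rn* encodes the IL-1 receptor antagonist. The Sham libraries held 0.222, 0.565 and 0.113 CPM from 4, 10 and 2 counts. Injured *VEGFR3* fl/fl libraries held 151, 601 and 514 CPM and *VEGFR3*iLECko libraries 368, 695 and 627 CPM. All injured libraries lay far above all Sham libraries, injured *VEGFR3* fl/fl replicate 1 was the lowest of them, and the injured groups overlapped. The log2 fold change after injury was 10.43 ± 0.78 SE (adjusted p = 5.06e-06), and it was 11.24 without Sham replicate 2, which held 10 of the 16 Sham counts. Between the injured groups the log2 difference was 0.42 ± 0.45 SE (adjusted p = 0.587).

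Because *Il1rn* and the genes for IL-1α and IL-1β encode competitors for the same receptor, their counts were also set against each other within each library, which removes library scaling. The ratio of *Il1rn* to *Il1a* plus *Il1b* was 0.209, 0.568 and 0.122 in Sham. It was 3.64, 5.01 and 4.64 in *VEGFR3* fl/fl after injury and 2.52, 3.93 and 2.55 in *VEGFR3*iLECko. The ratio was higher in every injured library than in any Sham library, and per transcript length (approximate TPM, which divides each count by the length of the gene's transcript) *Il1rn* was below the sum of *Il1a* and *Il1b* in every Sham library and above it in every injured library. On the log2 scale the mean went from -2.04 ± 1.13 (SD, n = 3) to 2.13 ± 0.24 (SD, n = 3) after injury (two-sided exact permutation p = 0.1, the smallest that 3 against 3 libraries allow, and 0.15 adjusted over 12 tests of ratios). The *VEGFR3*iLECko mean was 1.55 ± 0.37 (SD, n = 3), which overlapped with injured *VEGFR3* fl/fl (exact permutation p = 0.2, adjusted 0.267).

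Among the receptors, *Il1r1* encodes the chain through which both IL-1 forms signal. It was present without injury, at 45.9, 42.4 and 76.0 CPM in Sham. It reached 142, 111 and 129 CPM in injured *VEGFR3* fl/fl and 150.4, 148 and 187 CPM in *VEGFR3*iLECko. All 9 libraries fell into 3 groups that did not overlap, although the gap between the injured groups was small. The change after injury was modest beside those of *Il1a* and *Il1b*, with a log2 fold change of 1.22 ± 0.21 SE (adjusted p = 0.000968). The injured groups differed by 0.35 ± 0.21 SE on the log2 scale (adjusted p = 0.323).

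*Il1r2* encodes the decoy receptor, which binds IL-1 but lacks the signalling domain. Sham libraries held 0.388, 0.0565 and 0.169 CPM from 7, 1 and 3 counts. The injured *VEGFR3* fl/fl libraries held 7.95, 44.8 and 48.5 CPM and the *VEGFR3*iLECko libraries 53.2, 63.1 and 64.3 CPM. Injured *VEGFR3* fl/fl replicate 1 was the lowest injured library by a wide margin, and the 3 groups did not overlap. The log2 fold change after injury was 7.31 ± 0.88 SE (adjusted p = 9.27e-05), or 8.14 without Sham replicate 1. The *VEGFR3*iLECko libraries differed from injured *VEGFR3* fl/fl by 0.83 ± 0.50 SE on the log2 scale (adjusted p = 0.322).

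The count of *Il1r2* per count of *Il1r1* was 0.00905, 0.00200 and 0.00259 in Sham. It was 0.0561, 0.405 and 0.377 in *VEGFR3* fl/fl after injury and 0.354, 0.426 and 0.344 in *VEGFR3*iLECko. The ratio was higher in every injured library than in any Sham library, and injured *VEGFR3* fl/fl replicate 1 was again the lowest injured library. Per transcript length (approximate TPM), the decoy was below the signalling receptor in every Sham library and in that library, and above it in the other 5 injured libraries. The log2 ratio went from -8.12 ± 1.17 (SD, n = 3) to -2.29 ± 1.62 (SD, n = 3), with no overlap (exact permutation p = 0.1, adjusted 0.15), and was -1.42 ± 0.17 (SD, n = 3) in *VEGFR3*iLECko, which overlapped with injured *VEGFR3* fl/fl (exact permutation p = 0.8). The difference between the injured groups, 0.87, became -0.067 without injured *VEGFR3* fl/fl replicate 1.

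*Il1rap* encodes the accessory chain shared by the receptors of IL-1, IL-33 and IL-36. It stayed in a narrow range in Sham, at 16.3, 16.6 and 17.2 CPM. Injured *VEGFR3* fl/fl libraries held 13.8, 19.6 and 21.1 CPM, on either side of Sham, and *VEGFR3*iLECko libraries held 23.1, 33.0 and 48.9 CPM, all above both other groups. The log2 difference after injury was 0.13 ± 0.25 SE (adjusted p = 0.690), and it turned to -0.039 with library size scaling. Against Sham, the *VEGFR3*iLECko group was higher by a log2 fold change of 1.07 ± 0.25 SE (adjusted p = 0.00594), a call lost with the Y-linked covariate (0.75, adjusted p = 0.222). Against injured *VEGFR3* fl/fl the log2 difference was 0.94 ± 0.25 SE (adjusted p = 0.0801 by edgeR).

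*Il18* encodes IL-18, an inducer of interferon-γ that is also cut by caspase-1. It was present without injury, at 31.0, 36.8 and 30.6 CPM in Sham. It measured 27.6, 16.6 and 25.04 CPM in injured *VEGFR3* fl/fl and 21.8, 19.1 and 15.0 CPM in *VEGFR3*iLECko. Every injured library was below every Sham library, and the injured groups overlapped. The log2 difference of injured *VEGFR3* fl/fl from Sham was -0.51 ± 0.20 SE (adjusted p = 0.0478), which is under 1.5-fold, and it passed both thresholds with library size scaling (-0.69, adjusted p = 0.00890) and without injured *VEGFR3* fl/fl replicate 1 (-0.66, adjusted p = 0.0199). The *VEGFR3*iLECko group passed both thresholds against Sham, where *Il18* fell by 0.82 on the log2 scale (SE 0.20, adjusted p = 0.00656), a call lost with the Y-linked covariate (-0.98, adjusted p = 0.0577).

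*Il18r1* encodes the IL-18-binding receptor chain. It had 1 count in each Sham library. The injured *VEGFR3* fl/fl libraries held 58, 69 and 90 counts (3.52, 4.04 and 5.17 CPM) and the *VEGFR3*iLECko libraries 45, 69 and 77 counts (2.63, 3.91 and 4.43 CPM). All 6 injured libraries were above Sham, and the injured groups overlapped. Set against 3 counts per Sham library, *Il18r1* was at least 25.2-fold higher in injured *VEGFR3* fl/fl (adjusted p = 2.14e-06) and at least 21.7-fold higher in *VEGFR3*iLECko (adjusted p = 3.75e-06). Such limits cover counting error only. The injured groups differed by -0.21 ± 0.25 SE on the log2 scale (adjusted p = 0.619).

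The IL-18 binding protein gene *Il18bp*, which encodes a soluble inhibitor, had 187, 176 and 148 counts in Sham, 638, 1017 and 619 after injury in *VEGFR3* fl/fl mice, and 553, 420 and 586 in *VEGFR3*iLECko mice. Its count per count of *Il18* was 0.335, 0.270 and 0.273 in Sham, 1.40, 3.58 and 1.42 in *VEGFR3* fl/fl after injury and 1.48, 1.24 and 2.25 in *VEGFR3*iLECko. These are ratios of counts with no correction for length, and every injured library lay above every Sham library. The log2 ratio went from -1.78 ± 0.17 (SD, n = 3) to 0.94 ± 0.78 (SD, n = 3) after injury (exact permutation p = 0.1, adjusted 0.15). It was 0.68 ± 0.44 (SD, n = 3) in *VEGFR3*iLECko, within the range of the other injured group (exact permutation p = 0.7).

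*Il33* encodes IL-33, a nuclear alarmin released from damaged cells. It was the only member called lower in injured *VEGFR3* fl/fl against Sham. It measured 64.6, 40.2 and 64.5 CPM in Sham and 27.9, 13.7 and 13.3 CPM in injured *VEGFR3* fl/fl. The *VEGFR3*iLECko libraries held 75.2, 38.9 and 28.1 CPM, each above every injured *VEGFR3* fl/fl library and overlapping with Sham. *Il33* fell by 1.63 on the log2 scale after injury (SE 0.41, adjusted p = 0.00725). In *VEGFR3*iLECko the log2 difference from Sham was -0.25 ± 0.39 SE (adjusted p = 0.613), which turned positive with the Y-linked covariate (0.37) and without *VEGFR3*iLECko replicate 3 (0.018). The difference from injured *VEGFR3* fl/fl was 1.38 ± 0.41 SE (adjusted p = 0.1003 by edgeR).

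*Il1rl1* encodes ST2, the IL-33 receptor, which exists as a signalling form and a soluble decoy form that a count per gene does not separate. Sham libraries held 1.55, 1.24 and 1.30 CPM. Injured *VEGFR3* fl/fl libraries held 5.22, 8.08 and 5.17 CPM and *VEGFR3*iLECko libraries 8.12, 22.3 and 25.2 CPM. All groups were separate, but *VEGFR3*iLECko replicate 1 exceeded the highest injured *VEGFR3* fl/fl library only narrowly. The log2 fold change was 2.17 ± 0.43 SE in injured *VEGFR3* fl/fl against Sham (adjusted p = 0.00189) and 3.76 ± 0.43 SE in *VEGFR3*iLECko against Sham (adjusted p = 9.41e-05). Between the injured groups the difference was 1.59 ± 0.38 SE, the largest among the 10 genes (adjusted p = 0.0664 by edgeR), and it was called without *VEGFR3*iLECko replicate 1 (1.95, adjusted p = 0.0476).

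*Il33* had 40.9, 31.7 and 48.8 counts per count of *Il1rl1* in Sham. This ratio was 5.31, 1.69 and 2.57 in *VEGFR3* fl/fl after injury and 9.24, 1.74 and 1.11 in *VEGFR3*iLECko. The ratio was higher in every Sham library than in any injured library, and per transcript length (approximate TPM) the ligand was above the receptor in all 9 libraries. The log2 mean was 5.32 ± 0.31 (SD, n = 3) in Sham, 1.51 ± 0.83 (SD, n = 3) in injured *VEGFR3* fl/fl (exact permutation p = 0.1, adjusted 0.15) and 1.39 ± 1.61 (SD, n = 3) in *VEGFR3*iLECko. The injured groups overlapped (exact permutation p = 1), and the sign of their difference, -0.12, turned without any of 3 of the libraries.

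**Figure D2:**
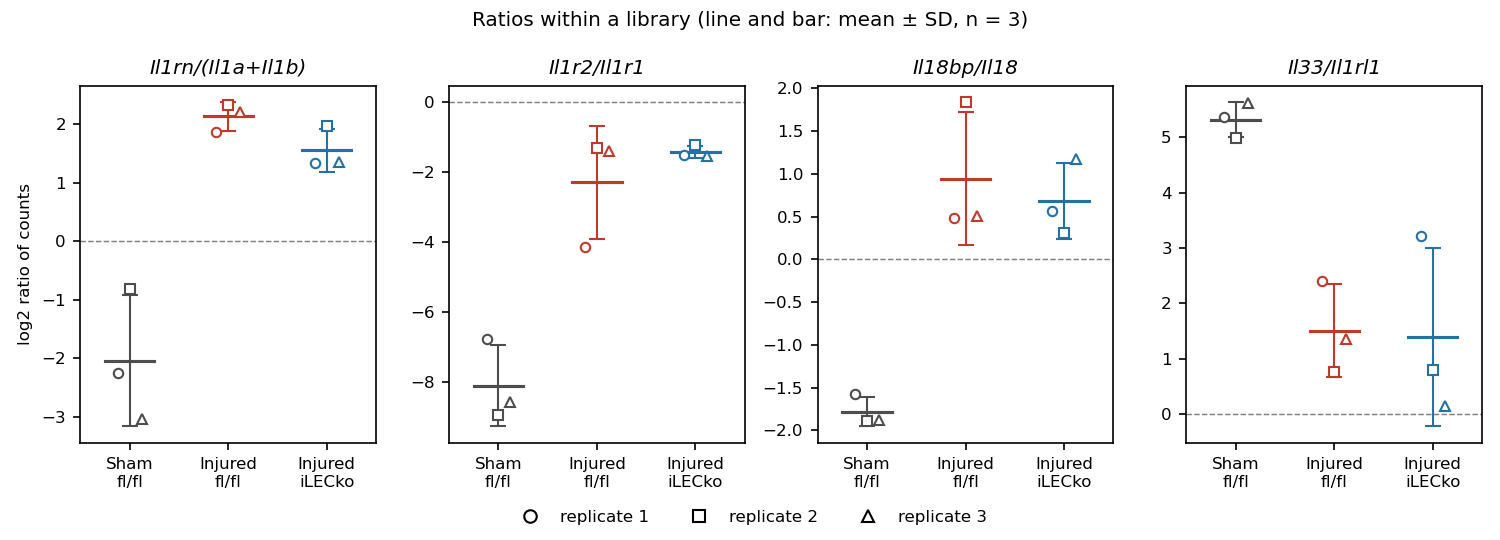
Log2 ratios of counts within each library for 4 pairs of IL-1 family genes, by group; symbols are libraries, lines are group means and bars SDs (n = 3), the dashed line marks a log2 ratio of 0, and ratios are of counts with no correction for length. In all 4 panels the Sham libraries are separate from the injured libraries, and the injured groups overlap.

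No member was called different between the injured *VEGFR3*iLECko and injured *VEGFR3* fl/fl groups. By edgeR's test 0 of 10 were called higher and 0 lower, where 0.573% and 0.466% of all tested genes were called, and 4 (*Il1b*, *Il1rap*, *Il33* and *Il1rl1*) had an unadjusted p under 0.05. By the same test *Flt4* had an unadjusted p of 0.0475 and an adjusted p of 0.200, so such unadjusted values were common among all tested genes. DESeq2 called 3 of these 4 members higher, *Il1rap* (adjusted p = 0.00899), *Il33* (0.00797) and *Il1rl1* (0.00247). It called 349 of all 15010 tested genes higher, more than edgeR did. In 6 genes (*Il1b*, *Il1r1*, *Il1r2*, *Il1rap*, *Il33* and *Il1rl1*) every *VEGFR3*iLECko library was above every injured *VEGFR3* fl/fl library, as in 12.4% of all tested genes, and in 0 was it below, as in 14.3%. The median log2 difference of the 10 genes was 0.62, beside -0.0099 over all tested genes. Without injured *VEGFR3* fl/fl replicate 1, the library that stood apart, the log2 difference was 0.37 for *Il1r2* instead of 0.83.

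Against Sham, 8 of the 10 genes were called higher in *VEGFR3*iLECko, the 7 above and *Il1rap*, where 19.7% of all tested genes were, and *Il18* was called lower, as were 15.0% of all tested genes. Every *VEGFR3*iLECko library was above every Sham library in 8 genes (33.3% of all tested genes) and below in 1 (33.2%). The log2 fold changes were 5.35 for *Il1a* (adjusted p = 7.85e-07), 7.70 for *Il1b* (adjusted p = 7.20e-06), 10.85 for *Il1rn* (adjusted p = 5.62e-06), 1.56 for *Il1r1* (adjusted p = 0.000281) and 8.14 for *Il1r2* (adjusted p = 5.93e-05). Leaving out a single Sham library moved those of *Il1rn* to 11.65 (replicate 2) and *Il1r2* to 8.97 (replicate 1). This comparison shares its Sham libraries with the comparison of injured *VEGFR3* fl/fl and its *VEGFR3*iLECko libraries with that of the injured groups, so the 3 sets of values are given side by side and not as independent results. The plot of log2 fold changes by comparison shows them together.

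**Figure D3:**
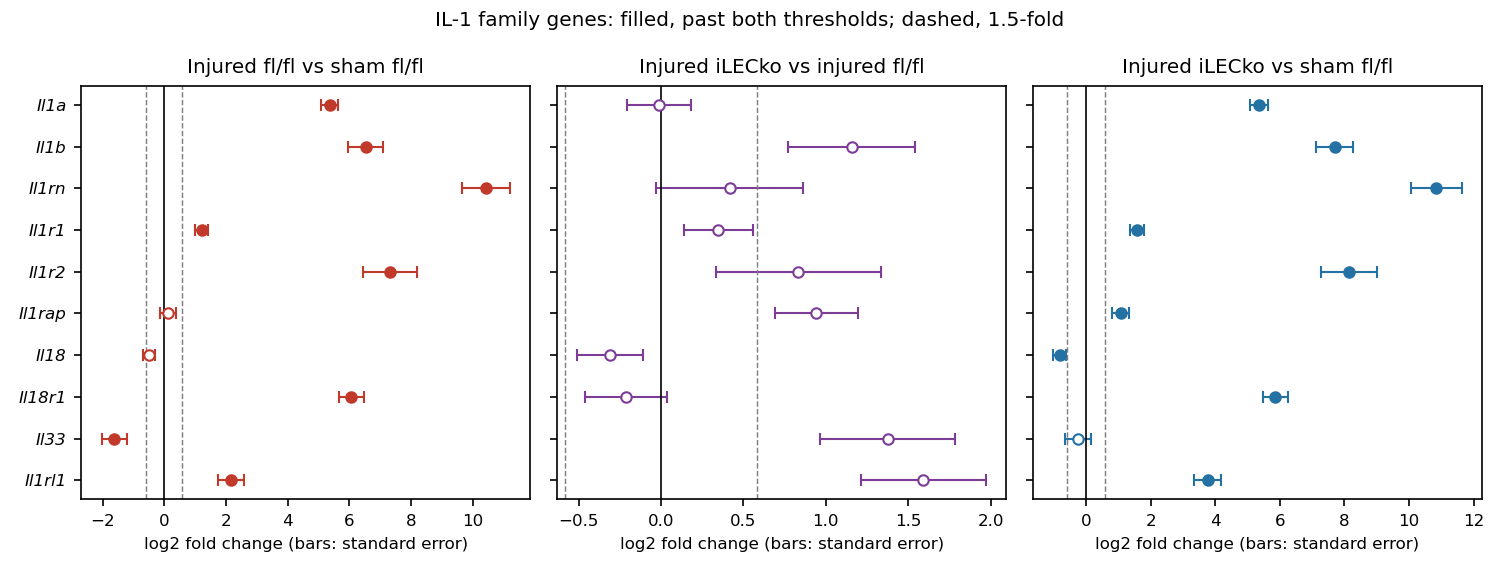
Log2 fold changes of the 10 genes in the 3 comparisons, with standard errors as bars; filled points passed both thresholds, dashed lines mark 1.5-fold, and the horizontal scales differ between panels. The filled points are 8 genes in the left panel, 0 in the middle panel and 9 in the right panel.

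Levels were compared between genes only as approximate TPM, computed from the longest annotated transcript of each gene. In Sham irises the order was *Il18* (106 ± 7.39), *Il33* (64.0 ± 17.9), *Il1r1* (27.0 ± 9.35), *Il1rap* (10.6 ± 0.48) and *Il1b* (1.82 ± 0.29 TPM, SD, n = 3), and each of these neighbours was separate in every library. *Il1rl1* (0.739 ± 0.117 TPM), *Il1r2* (0.421 ± 0.358), *Il1a* (0.352 ± 0.092) and *Il1rn* (0.330 ± 0.248) followed. *Il1r2* overlapped with each of the others of those 4, whereas *Il1rl1* was above *Il1a* and *Il1rn* in every library, and *Il18r1* was the lowest at 0.0386 TPM. The uninjured iris thus held transcripts of IL-18, IL-33 and the IL-1 receptor chains, with little of IL-1 itself.

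After injury the order changed. In injured *VEGFR3* fl/fl irises *Il1rn* led with 397 ± 238 TPM, followed by *Il1b* (142 ± 79.1), *Il18* (60.4 ± 12.9), *Il1r2* (57.4 ± 39.6) and *Il1r1* (50.8 ± 4.07 TPM, SD, n = 3). The range of each neighbour in this stretch overlapped with the next. Within each library of both injured groups, however, *Il1rn* was above *Il1b*. *Il33* (16.4 ± 5.96 TPM), *Il1a* (12.2 ± 2.28) and *Il1rap* (9.49 ± 2.63) came next, separate from *Il1r1* and overlapping in range with their neighbours. Within each of these libraries *Il1a* was above *Il1rap*. *Il1rl1* (2.73 ± 0.85 TPM) and *Il18r1* (2.40 ± 0.62) were lowest and overlapped. In *VEGFR3*iLECko irises *Il1rn* (575 ± 190 TPM) overlapped with *Il1b* (344 ± 105), and below them *Il1r2* (110.0 ± 14.0), *Il1r1* (71.9 ± 9.81) and *Il18* (54.4 ± 9.42) were separate from each other. *Il33* (47.9 ± 23.6 TPM) overlapped with *Il18*. *Il1rap* (20.1 ± 7.62 TPM) was separate from *Il33*, *Il1rap*, *Il1a* (13.3 ± 2.72) and *Il1rl1* (9.13 ± 4.62) overlapped in turn, and *Il18r1* (2.29 ± 0.62 TPM) was again the lowest. By mean TPM the decoy receptor was thus the third most abundant of the 10 in *VEGFR3*iLECko and the seventh in Sham.

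Across the 9 libraries, *Il1a*, *Il1b*, *Il1rn*, *Il1r2* and *Il18r1* followed each other closely, with Pearson r of log2 CPM from 0.963 to 0.993. *Il1rap* followed *Il1rl1* most (r = 0.812), and *Il33* ran against all other members except *Il18* (r = 0.411). These values describe 9 libraries in 3 groups, of which Sham lies far from the rest, and carry no test. By the same measure, the genes outside the family most like each member were *Plaur*, *Adgrg5* and *Ank* for *Il1a* (r = 0.997 each). For *Il1b* they were *P2ry2* (0.998), *Gpr35* and *Ltb4r1* (0.997 each), and for *Il1rn* they included *Fn1* and *Sirpb1b* (0.997 each). For *Il1r2* they were *Myh9* (0.995), *Pdcd6ip* (0.994) and *Rab44* (0.993), and for *Il1r1* they were *Cxcl1* (0.990), *Acat3* (0.985) and *Ugcg* (0.984). For *Il18r1* they were *Baz1a*, *Selplg* and *Elf4* (0.999 each), and for *Il1rl1* they were *Tulp4* (0.989), *Ttc39b* (0.984) and *Dio2* (0.981). For *Il1rap* they were *Tet3* (0.977), *Rlf* and *Api5* (0.970 each), for *Il18* *Bpifb5* (0.986), *Gstk1* (0.978) and *Kat5* (0.976), and for *Il33* *Aqp4*, *Aldh1a1* (0.978 each) and *Fbln1* (0.968).

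The remaining ligands and receptor chains of the family were taken from fixed lists. Of 6 further ligand or binding protein genes, 4 were listed and 3 tested. All 3 rose in injured *VEGFR3* fl/fl against Sham, beside 22.1% of all tested genes. *Il1f9*, the gene for IL-36γ, had 6, 9 and 7 counts in Sham and 59, 189 and 265 after injury (log2 fold change 4.57). *Il18bp* had a log2 fold change of 2.22. *Il1f10*, the gene for IL-38, had 0 counts in Sham and 4, 9 and 14 after injury, which is at least 3.12-fold higher against 3 counts per library, whereas *Il1f5*, the gene for the IL-36 receptor antagonist, had at most 1 count in any library. Of 5 further receptor chains, 3 rose and 2 fell, beside 22.1% and 17.5% of all tested genes. *Il18rap*, the IL-18 accessory chain, rose by a log2 fold change of 4.56, and *Il1rl2*, the IL-36 receptor, by 2.92. *Sigirr*, a chain that dampens IL-1 family signalling, rose by 1.16. *Il1rapl2* went from 12, 12 and 15 counts to 1, 0 and 0 (at least 4.13-fold lower), and *Il1rapl1* fell by 1.15 on the log2 scale (adjusted p = 0.0435), both genes known mainly from neurons. The call of *Il1rapl1* was lost with the Y-linked covariate, in the fit to 6 libraries, and without any of 7 single libraries (each Sham replicate, injured *VEGFR3* fl/fl replicates 1 and 3, and *VEGFR3*iLECko replicates 2 and 3), with adjusted p from 0.0575 to 0.115 and log2 fold changes from -1.28 to -0.77. In the comparison of the injured groups 0 of these 8 tested genes were called.

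Of 9 genes whose products process or release IL-1β and IL-18, all 9 rose after injury in *VEGFR3* fl/fl, beside 22.1% of all tested genes. Their median log2 fold change was 3.27. *Casp1*, the converting enzyme, went from 22, 19 and 16 counts to 425, 315 and 381 (log2 fold change 4.36). The inflammasome sensors *Nlrp1b* (4.31), *Nlrp3* (4.27) and *Aim2* (3.84) rose to a like extent. Between the injured groups edgeR called 0 of 9, with a median log2 difference of -0.41, whereas DESeq2 called *Casp1* (adjusted p = 0.0162) and *Gsdmd* (adjusted p = 0.00283), the pore-forming protein, lower. Of all 15010 tested genes DESeq2 called 281 lower. By edgeR *Casp1* (-0.67, adjusted p = 0.0699) had the largest difference, and *Nlrp3* (0.30, adjusted p = 0.594) was the only gene of the 9 with a positive value.

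Of 12 genes of the MyD88 pathway downstream of the receptors, 4 rose after injury and 8 were not called. Of all tested genes 22.1% were called higher, and the median log2 fold change of the 12 was -0.089. *Irak3*, a kinase-like inhibitor of the pathway, changed most (2.08), followed by the adaptor *Myd88* (1.48) and the kinase *Irak4* (1.13). *Peli1*, a ubiquitin ligase, rose by 0.62, a call lost under 4 of 19 settings. They were library size scaling, the Y-linked covariate (0.52, under 1.5-fold), and the fits without Sham replicate 2 or injured *VEGFR3* fl/fl replicate 3. Between the injured groups 0 of 12 were called, with a median of 0.062.

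Of 17 genes known to be induced by IL-1, 16 were tested and 15 rose in injured *VEGFR3* fl/fl against Sham, beside 22.1% of all tested genes. The median log2 fold change of the 16 was 3.24. *Nfkbia* was not called (-0.21, adjusted p = 0.531), and *Ccl20* had at most 1 count in any library. *Il6* went from 1, 0 and 0 counts to 19, 61 and 47, at least 14.7-fold higher. *Cxcl5*, a neutrophil chemoattractant, rose by a log2 fold change of 6.47. *Saa3*, an acute-phase gene, had 1, 0 and 1 counts in Sham and 437, 95 and 136 after injury, at least 79.1-fold higher, and its fitted log2 fold change went from 8.22 to 7.23 without injured *VEGFR3* fl/fl replicate 1. *Mmp3*, a matrix protease, had a log2 fold change of 7.40 that rested largely on injured *VEGFR3* fl/fl replicate 1, which held 3529 counts where replicates 2 and 3 held 117 and 184, and it was 4.26 without that library. DESeq2 gave no adjusted p for *Saa3* and *Mmp3*. *Csf3* had 0, 0 and 1 counts in Sham and 24, 6 and 3 after injury, at least 3.92-fold higher. Its call (fitted log2 fold change 4.68) was lost without Sham replicate 1 (4.22, adjusted p = 0.0650) or 2 (4.23, adjusted p = 0.0627) or injured *VEGFR3* fl/fl replicate 1 (3.38, adjusted p = 0.0931). That of *Tnfaip3*, an inhibitor of NF-κB signalling (0.75), was lost with library size scaling, in the fit to 6 libraries, and without Sham replicate 1 (0.68, adjusted p = 0.0905) or 2 (0.50, adjusted p = 0.0552) or injured *VEGFR3* fl/fl replicate 2 (0.76, adjusted p = 0.0514) or 3 (0.75, adjusted p = 0.0556).

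In this list, 2 genes were called between the injured groups, both higher in *VEGFR3*iLECko, beside 0.573% of all tested genes. *Il6* had 282, 256 and 255 counts in *VEGFR3*iLECko, all above the 19, 61 and 47 of injured *VEGFR3* fl/fl, a log2 fold change of 2.61 ± 0.37 SE (adjusted p = 0.0263 by edgeR). *Csf3*, the gene for the neutrophil growth factor G-CSF, had 127, 102 and 370 counts against 24, 6 and 3, a log2 fold change of 4.12 ± 0.76 SE (adjusted p = 0.0417), which was 5.43 without injured *VEGFR3* fl/fl replicate 1 and 3.32 without *VEGFR3*iLECko replicate 3. Over 19 settings, 0 to 4 genes of the list were called. With the Y-linked covariate neither *Il6* (2.497, adjusted p = 0.257) nor *Csf3* (5.92, adjusted p = 0.250) was called. Nor were they with the replicate block (adjusted p = 0.0627 and 0.0789) or in the fit to 6 libraries (adjusted p = 0.0968 and 0.119). Over all 19 settings the log2 fold change was 2.28 to 2.97 for *Il6* and 3.32 to 5.92 for *Csf3*. Both calls were also lost without Sham replicate 1 (0.0579 and 0.0774), without Sham replicate 3 (0.0596 and 0.0891), and without *VEGFR3*iLECko replicate 1 (0.0607 and 0.0707), 2 (0.111 for both) or 3 (0.0516 and 0.0921), all adjusted p for *Il6* and *Csf3*. That of *Csf3* was also lost without Sham replicate 2 (adjusted p = 0.0627) and without injured *VEGFR3* fl/fl replicate 2 (0.0592) or 3 (0.0526). The median log2 difference of the 16 genes was 0.86. *Cxcl1* (1.71, adjusted p = 0.0804), *Cxcl2* (1.80, adjusted p = 0.0634) and *Cxcl5* (2.01, adjusted p = 0.102) were chosen here after their values were seen, and did not pass by edgeR. *Cxcl2* was called by DESeq2 (adjusted p = 0.00177).

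**Figure D4:**
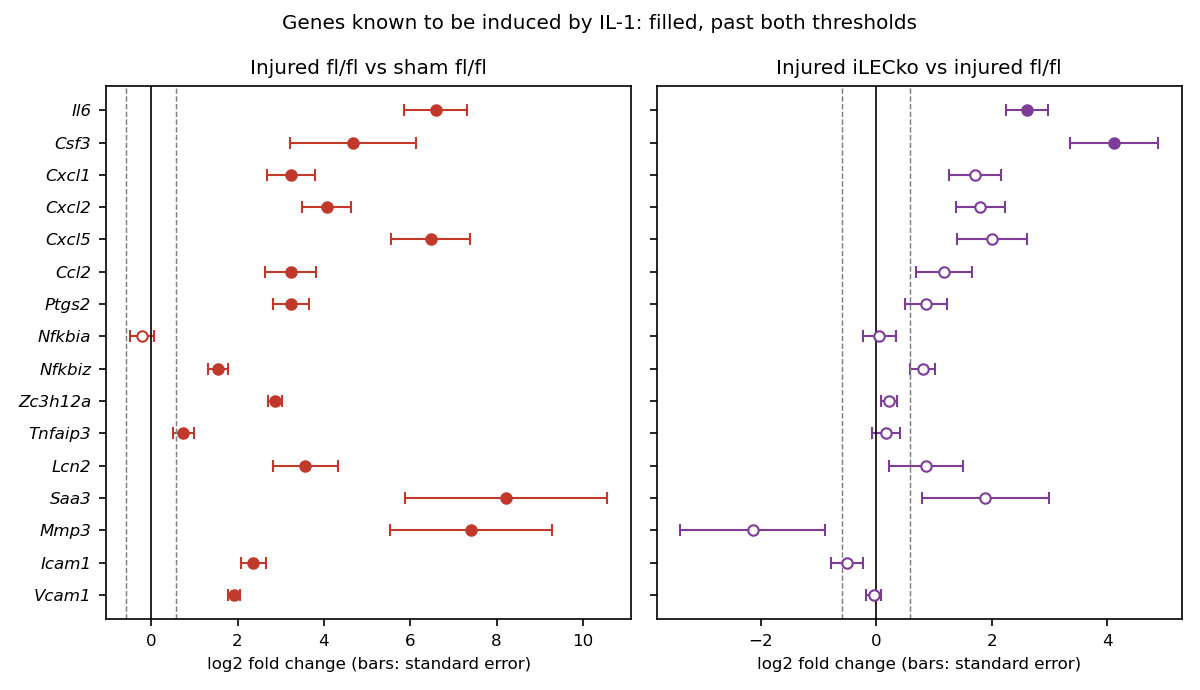
Log2 fold changes of the 16 tested genes known to be induced by IL-1, with standard errors as bars, after injury (left) and between the injured groups (right); filled points passed both thresholds and dashed lines mark 1.5-fold. On the left 15 points are filled, and on the right those of *Il6* and *Csf3*.

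Of 10 genes known to be induced by IL-33 or IL-18, 3 were tested. Beside 22.1% of all tested genes, all 3 rose after injury. They were *Chil3* (log2 fold change 7.67, or 6.76 without injured *VEGFR3* fl/fl replicate 3), *Arg1* (5.34) and *Ccl17* (at least 7.85-fold higher, with a fitted log2 fold change of 4.02 that was 5.24 without Sham replicate 3 and 3.41 without injured *VEGFR3* fl/fl replicate 3), which are also known as products of activated macrophages and dendritic cells. *Il4*, *Il13* and *Ifng* had at most 2 counts in any library and *Il5* at most 4, so that a difference in these lymphocyte cytokines was not detectable at this depth. Between the injured groups 0 of 3 were called.

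Markers of several cell types rose after injury, as most members did, where 22.1% of all tested genes were called higher. Between the injured groups the members had a median log2 difference of 0.62. Of the leukocyte lists, that of neutrophils went the same way (1.33). Those of macrophages (-0.62), T cells (-0.63), natural killer cells (-0.89) and mast cells (-2.00) went the other way. Of 12 neutrophil marker genes 9 were tested and 7 rose after injury, and their summed level went from 4.54 to 6.25 CPM in Sham to 182, 478 and 561 CPM in injured *VEGFR3* fl/fl replicates 1 to 3. It was 416, 580 and 1364 CPM in *VEGFR3*iLECko replicates 1 to 3, where 0 of 9 were called against injured *VEGFR3* fl/fl. *Ly6g*, a defining neutrophil marker, was at 0 in Sham, at 4, 7 and 86 counts in *VEGFR3*iLECko, and at 3, 3 and 4 counts for the other injured group. The library with the lowest neutrophil level among the injured was also the lowest for *Il1b*, *Il1rn* and *Il1r2*, though not for *Il1a*. The library with the highest, *VEGFR3*iLECko replicate 3, was the highest for *Il1b* (239 CPM) and *Il1r2* (64.3 CPM). It was the lowest injured library for *Il1a* (7.77 CPM), and its *Il1rn* (627 CPM) was below that of replicate 2 (695 CPM). A link between these levels was not tested. All 9 macrophage markers rose after injury, from a sum of 359 to 366 CPM to 2860 to 3110 CPM. The sum was 1749 to 2010 CPM in *VEGFR3*iLECko, where 5 of 9 were called lower than in injured *VEGFR3* fl/fl, beside 0.466% of all tested genes. In the fit to 6 libraries and without *VEGFR3*iLECko replicate 2, 0 of all tested genes were called lower, so these calls were lost. With the Y-linked covariate 2 of all tested genes were called lower, so at most 2 of these 5 calls could remain. T cell markers (8 of 8 higher) went from 4.97 to 5.32 CPM to 40.6 to 58.2 CPM, and to 24.2 to 43.1 CPM in *VEGFR3*iLECko. Natural killer cell markers summed to 0.452 to 0.775 CPM in Sham and to 2.99 to 7.83 CPM in the injured groups.

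Iris pigment and muscle markers were lower than in Sham in both injured groups (9 of 10 called in each, median log2 fold changes -2.17 and -1.90). Of all tested genes 17.5% and 15.0% were called lower. *Il33* was called lower in injured *VEGFR3* fl/fl and not in *VEGFR3*iLECko (-0.25, adjusted p = 0.613 by edgeR). Its difference between the injured groups did not pass the threshold (1.38, adjusted p = 0.1003 by edgeR). Of the other lists, 6 of 7 blood endothelial and 4 of 6 fibroblast markers rose after injury, where 22.1% of all tested genes were called higher. Of 5 tested markers of corneal and surface epithelium 3 fell, beside 17.5% of all tested genes. The epithelial list summed to 52.5, 27.0 and 3.604 CPM in Sham replicates 1 to 3 and to 2.003 to 4.48 CPM in injured *VEGFR3* fl/fl. Sham replicate 3 thus lay within the injured range. Of 5 tested mast cell markers 0 were called in any comparison, and their list summed to 85.7 to 92.5 CPM in Sham, 114.5 to 181 CPM in injured *VEGFR3* fl/fl and 67.3 to 114 CPM in *VEGFR3*iLECko. Among 7 lymphatic endothelial markers *Pdpn* and *Ccl21a* were called higher and *Reln* lower after injury. *Ccl21a* had 7, 18 and 18 counts in Sham and 1522, 79 and 0 after injury, and without injured *VEGFR3* fl/fl replicate 1 neither *Ccl21a* (1.51 instead of 5.31, adjusted p = 0.280) nor *Pdpn* (0.49, under 1.5-fold) was called. *Reln* was called higher in *VEGFR3*iLECko than in injured *VEGFR3* fl/fl (0.75), a call lost under 9 of 19 settings, including the Y-linked covariate (0.74, adjusted p = 0.291 by edgeR). Of 2 genes of the ciliary body 0 were called. The part of these cell types in the levels of the IL-1 family was not tested.

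**Figure D5:**
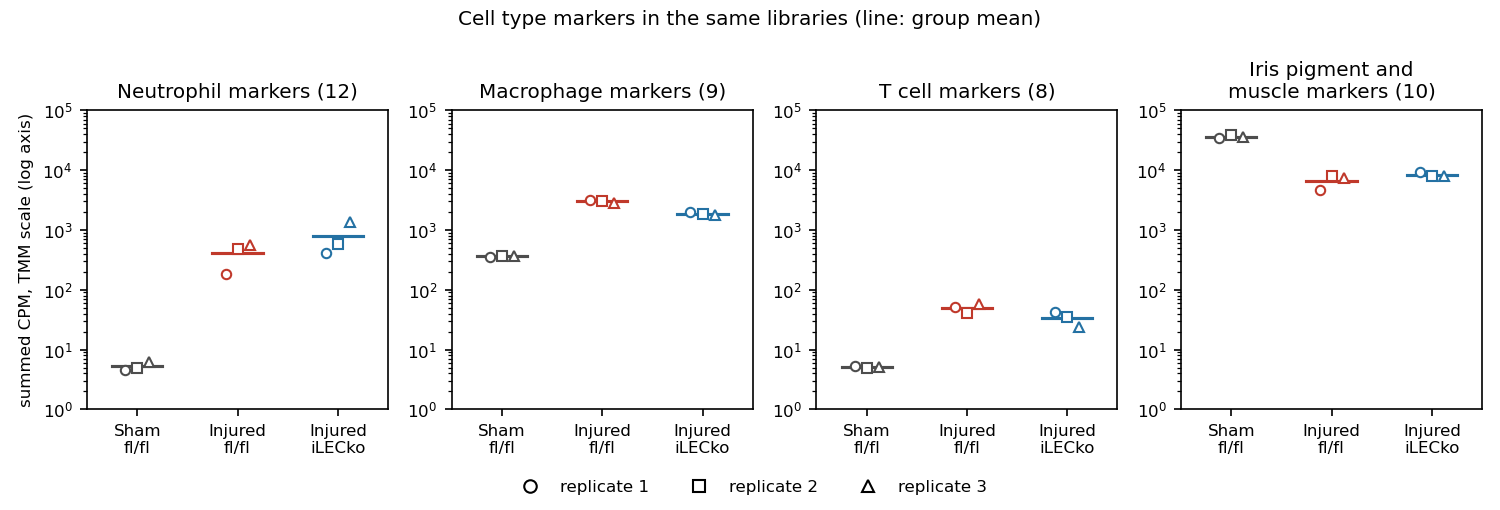
Summed CPM (TMM scale, log axis) of the neutrophil, macrophage, T cell and iris marker lists in each of the 9 libraries; symbols are libraries and lines group means. The 3 leukocyte lists are higher in all injured libraries than in Sham and the iris list is lower, and replicate 1 of injured *VEGFR3* fl/fl has the lowest neutrophil sum (182 CPM) of the injured libraries.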

How the data were processed

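Irises were collected into 9 pools of 3, and bulk RNA was sequenced as single-end reads of 50 bases. The authors deposited, per library, an estimated count for each gene, of which 9.83% to 10.3% were not whole numbers. HISAT2 2.0.4, Bowtie2 2.2.5, DESeq2 1.4.5 and the mm10 build are named in the submitters' processing notes, and the counting program and annotation are not given in the sources used here. Reads of near-identical or overlapping genes may be split by such estimates.

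Estimated counts were rounded, genes were filtered with filterByExpr, libraries were scaled by TMM, and a single group model over all 9 libraries was fitted with edgeR 4.0.16 in R 4.3.3 (quasi-likelihood test, Benjamini-Hochberg adjustment over 15010 genes). A gene was called at an adjusted p under 0.05 and more than 1.5-fold. The test was checked on simulated counts with 200 changed genes. Ratios added 0.5 to each count and were compared by two-sided exact permutation, adjusted over 12 tests. Correlations used log2 CPM with a prior count of 2. Approximate TPM used the longest annotated transcript, which 96.7% of genes had. Groups at or under 3 counts per library were set to that floor, which covers counting error only. The study's methods speak of 3 sequencing experiments with 3 mice per group in each, but the labels tie no library to an experiment, and p-values measure the spread between these pools. Total counts of 16617187 to 18306359 per library set the precision.

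The members and gene lists were chosen with earlier results of these data known. All 10 members were named, with up to 4 genes per pathway list that had the largest called change after injury, each gene called between the injured groups, and 3 genes of at least 1 CPM most like each member, of which 1 is not reported here. Other genes were named after their values were seen, where they completed a count or were given beside it. Marker lists covered macrophages, neutrophils, mast cells, T cells, natural killer cells, surface epithelium, iris, lymphatic and blood endothelium, fibroblasts, ciliary body and Y-linked genes. Alternatives were DESeq2 1.42.0, other scalings and filters, a replicate block, a Y-linked covariate, a fit to the 6 libraries compared and leaving out each library. *Il36a*, *Il36b* and *Tpsab1* were not analysed here.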

Additional observations from a re-analysis of the deposited data

How the results depend on the processing

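With 3 pools per group and no Sham group with Cre, small differences between the injured groups were near the limit of the design, and members with under 20 counts per Sham library have imprecise fold changes. Over the values of members, ratios and named genes, 228 alternative values for injured *VEGFR3* fl/fl against Sham kept their direction and side of the threshold, 2 passed it newly and 1 turned. For the injured groups 234 kept both, 4 passed newly, 19 lost the call (all for *Il6* and *Csf3*), 2 counts moved and 8 values turned, and for *VEGFR3*iLECko against Sham 227 kept both, 2 lost the call and 2 turned. The cause of these changes was not tested.

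The values that turned were small. *Il1rap* in injured *VEGFR3* fl/fl against Sham was -0.039 (log2) with library size scaling. *Il1a* between the injured groups was 0.044 with library size scaling, 0.073 without injured *VEGFR3* fl/fl replicate 2 and 0.15 without *VEGFR3*iLECko replicate 3. *Il33* in *VEGFR3*iLECko against Sham was 0.37 with the Y-linked covariate and lay between -0.75 and 0.018 when single libraries were left out, the positive value being without *VEGFR3*iLECko replicate 3. Between the injured groups, the log2 ratio difference of *Il1r2* to *Il1r1* was -0.067 without injured *VEGFR3* fl/fl replicate 1, that of *Il18bp* to *Il18* was 0.19 without injured *VEGFR3* fl/fl replicate 2, and that of *Il33* to *Il1rl1* turned to 0.33 (injured *VEGFR3* fl/fl replicate 1 left out), 0.17 (*VEGFR3*iLECko replicate 2 left out) and 0.49 (its replicate 3 left out). Leaving out single libraries gave -0.067 to 1.36, -0.50 to 0.19 and -1.03 to 0.49 for these 3 ratios and -0.79 to -0.47 for *Il1rn* to *Il1a* plus *Il1b*.

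The number of members called was 8 to 9 in injured *VEGFR3* fl/fl against Sham, 0 to 1 between the injured groups and 9 in *VEGFR3*iLECko against Sham when single libraries were left out. DESeq2 called 3 between the injured groups, among 349 genes called higher over all tested genes, and without *VEGFR3*iLECko replicate 1 edgeR called 1. With the Y-linked covariate *Il1r2* in *VEGFR3*iLECko against Sham had a log2 fold change of 7.34 instead of 8.14.

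The replicate block left the members called at 8, 0 and 9. Deviations of libraries with the same number correlated at -0.387 to 0.131, above 0.1 in 1 of 9 pairs, so the numbers were not taken to pair the libraries. With the replicate block 11 genes were called higher and 13 lower between the injured groups, compared with 86 and 70 without it, and *Il6* (adjusted p = 0.0627) and *Csf3* (adjusted p = 0.0789) were no longer called. They were also lost in the fit to 6 libraries (0.0968 and 0.119).

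Over all tested genes, the calls between the injured groups (86 higher, 70 lower) were 349 and 281 with DESeq2, 0 and 2 with the Y-linked covariate, and 0 and 0 in the fit to 6 libraries. They were 10 and 16, 38 and 38, and 3 and 8 without Sham replicates 1 to 3, and 3 and 6, 0 and 0, and 46 and 17 without *VEGFR3*iLECko replicates 1 to 3. Leaving out injured *VEGFR3* fl/fl replicate 2 gave 149 lower, leaving out its replicate 3 gave 174 higher and 107 lower, with library size scaling 41 lower, and with no fold threshold 112 lower. With no fold threshold, 4269 instead of 2630 genes were lower in injured *VEGFR3* fl/fl than in Sham, and 3953 instead of 2259 in *VEGFR3*iLECko. Library size scaling moved the all-gene median (log2) to -0.16, 0.052 and -0.12 in the 3 comparisons, and the share of calls that were higher from 55.8% to 44.1%, from 55.1% to 63.4% and from 56.7% to 48.7%.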
